A study of Homo sapiens with 8 samples.

Results

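The genes examined were 10 members of polyamine metabolism and of the methionine salvage pathway that leads out of it, namely ODC1, AMD1, SRM, SMS, OAZ1, AZIN1, SAT1, SMOX, MTAP and ADI1. They were taken by name, by matching the Ensembl identifiers of the count table to GENCODE symbols. The rule itself uses no measured value, but the members were chosen with earlier results of these data known. All 10 were among the 57500 counted genes and among the 19171 genes with enough counts to be tested. HEK293T cells (derived from human embryonic kidney and expressing the large T antigen of SV40) were treated with 100 µM DZNep or with vehicle (Control) for 48 h, and RNAseq was performed on 4 biological replicates of each group. DZNep is short for 3-deazaneplanocin A, which resembles adenosine and blocks AHCY, the enzyme that hydrolyses the S-adenosylhomocysteine left behind by methyltransferases. Both groups were the same line, and the labels set them apart only by the drug. The labels name DMEM with serum as the medium, whereas the methods text names RPMI.

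Polyamines (putrescine, spermidine and spermine) are small cations that bind nucleic acids and are needed for growth. ODC1 makes putrescine from ornithine, AMD1 decarboxylates S-adenosylmethionine to supply aminopropyl groups, and SRM and SMS add these groups to give spermidine and then spermine. Each of these additions releases methylthioadenosine, which MTAP cleaves and which the salvage enzymes, ADI1 among them, return to methionine, so that the pathway draws on and refills the same methionine pool that feeds methylation.

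Of the 10 genes, 1 was higher and 2 were lower in DZNep-treated cells, and the other 7 did not pass the test, at an adjusted p under 0.05 by which 19.1% of all genes tested were higher and 21.8% lower. The members as a group were thus called no more often than genes at large. SAT1, which acetylates spermidine and spermine for export or oxidation, rose 7.30-fold, from 1054 ± 286 to 7692 ± 1895 normalized counts (mean ± SD, n = 4). SMS fell from 6770 ± 1135 to 3514 ± 578 and MTAP from 2983 ± 369 to 1436 ± 164 normalized counts, so that Control exceeded DZNep 1.93-fold and 2.08-fold. Transcripts of ODC1 and AMD1, the regulated entry enzymes of synthesis, differed by less than their spread between replicates. In RNA from a bulk culture, fewer cells that carry a transcript and less of it per cell cannot be told apart.

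The starts of the 3 genes that passed are shown, 1 higher and 2 lower in DZNep-treated cells. Each line gives the 250 bases before the RefSeq transcript start (GRCh38.p14, plus strand, read 5′ to 3′), and capitals mark every match on either strand to the E-box motif CACGTG, the CCAAT box, the GC box motif GGGCGG and the core promoter motif TATAAA, called the TATA box.
SAT1: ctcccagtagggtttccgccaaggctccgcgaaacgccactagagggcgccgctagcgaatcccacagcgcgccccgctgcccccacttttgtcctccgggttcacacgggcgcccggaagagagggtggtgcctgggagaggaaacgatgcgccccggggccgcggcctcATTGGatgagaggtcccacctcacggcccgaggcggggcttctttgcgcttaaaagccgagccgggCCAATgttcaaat
SMS: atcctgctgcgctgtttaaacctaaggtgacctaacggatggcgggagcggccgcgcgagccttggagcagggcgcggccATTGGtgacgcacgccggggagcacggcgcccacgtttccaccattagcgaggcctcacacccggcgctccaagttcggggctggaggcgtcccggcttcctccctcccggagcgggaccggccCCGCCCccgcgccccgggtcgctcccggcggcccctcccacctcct
MTAP: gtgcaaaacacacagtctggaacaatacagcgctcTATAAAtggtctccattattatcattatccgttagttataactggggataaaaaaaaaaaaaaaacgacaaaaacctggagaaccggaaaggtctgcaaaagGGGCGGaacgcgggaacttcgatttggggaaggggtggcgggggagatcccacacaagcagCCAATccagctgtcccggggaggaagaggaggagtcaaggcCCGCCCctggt
The SAT1 window (chrX:23782923-23783172) held CCAAT 13 bases and its reverse complement 79 bases before the start and none of the other motifs. The SMS window (chrX:21940459-21940708) held 1 GC box and 1 CCAAT box, at 46 and 170 bases. In the MTAP window (chr9:21802386-21802635), GC boxes lay at 11 and 113 bases, a CCAAT box at 52 and a TATA box at 215, and no matches overlapped. RefSeq windows were matched for 8 of the 10 genes (not SMOX and AZIN1), of which 7 held CCAAT, 7 a GC box, 3 (ODC1, SRM and ADI1) an E-box and 1 a TATA box in at least 1 window. Among 35116 windows of the same length, 32.0% held CCAAT, 42.6% a GC box, 6.34% an E-box and 10.7% a TATA box. These shares are of single windows, whereas AMD1 and ODC1 had more than 1 window each, so they are not a like measure for the counts of genes. A match is a run of letters and does not show that a factor binds there.

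The libraries held between 25043058 and 44902779 counts, Control replicate 1 being the shallowest, and the member with the lowest counts, SMOX, had normalized counts of 237 or more in every library. Mitochondrial transcripts took 7.04% to 13.7% of the counts in replicates 1 and 4 of both groups and 3.02% to 4.44% in replicates 2 and 3. All 8 HEK293 markers looked up (PAX2, LHX1, NEFL, NEFM, VIM, KRT8, KRT18 and ENO2) were detected. In DZNep-treated cells 3 of them were higher (KRT8, KRT18 and ENO2) and 2 lower (PAX2 and LHX1), beside 19.1% and 21.8% of all genes tested. Of these, KRT18 lost the call in 6 and PAX2 in 4 of the 8 fits that left out a library. The summed level of the 8 HEK293 markers was 29400.2 to 53521 normalized counts in Control and 37275 to 49095 in DZNep libraries. Of 8 markers of other cell types, HBB was at 0 in every library and ALB, INS and MYH7 were at most 25 normalized counts. CD3E was at 0 in all Control and 8.16 to 40.5 in the DZNep libraries, while PTPRC, PECAM1 and COL3A1 ranged from 36.7 to 2083. Of the 4 tested, 1 (MYH7, 0.893 to 1.79 in Control and 9.98 to 25 in DZNep libraries) was higher, beside 19.1% of all genes tested. The sum of these 8 markers was 1049 to 1955 in Control and 989.8 to 2311 in DZNep libraries, and the part of any marker in the results was not tested. The authors call the replicates biological, but nothing in the labels says that they are separate cultures, so p-values measure the spread between these libraries.

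**Figure D1:**
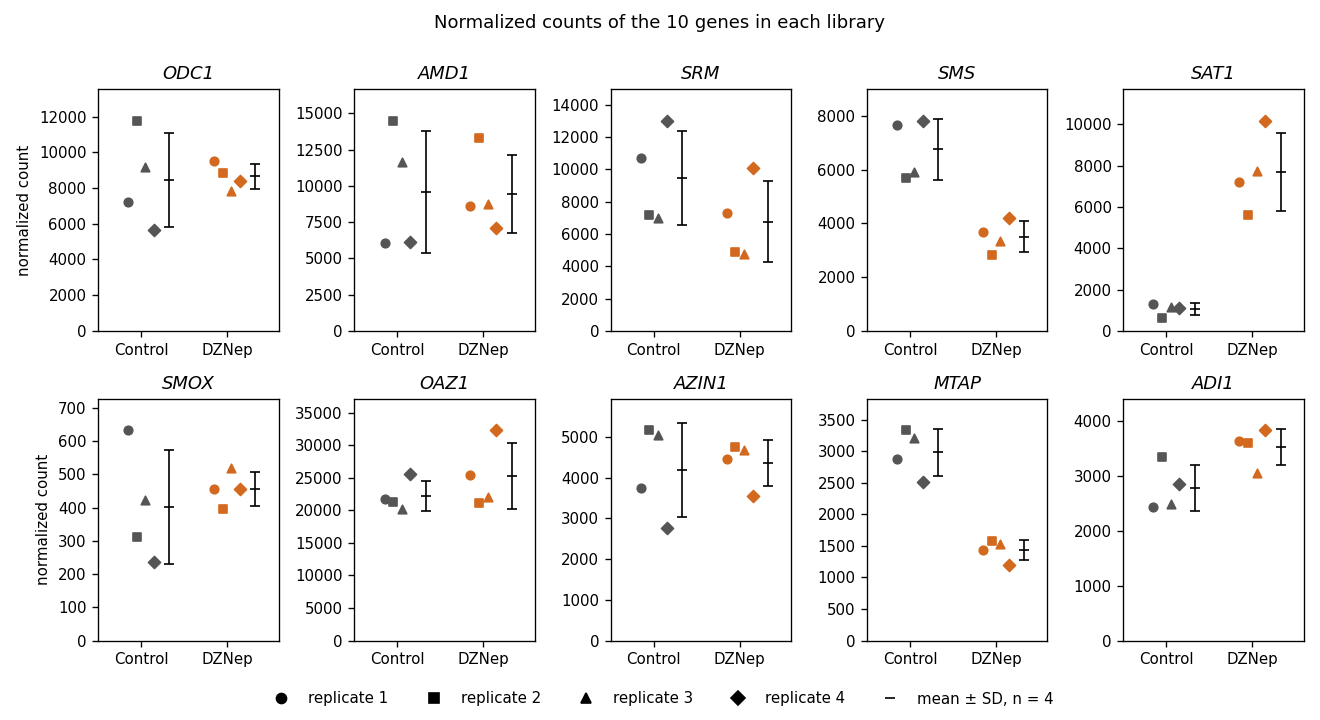
Normalized counts (count divided by the size factor of its library, vertical axis from 0 in each panel) of the 10 genes in the 4 Control (grey) and 4 DZNep (orange) libraries, with a symbol for each replicate number and bars for the mean ± SD. The groups do not overlap for SAT1 (Control 640 to 1295, DZNep 5597 to 10174), SMS (5683 to 7823 against 2825 to 4203) and MTAP (2511 to 3332 against 1205 to 1573), and do overlap for the other 7.

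The 3 calls were made with edgeR's quasi-likelihood test and Benjamini-Hochberg adjustment over all 19171 genes, at an adjusted p under 0.05. With the further requirement of an absolute log2 fold change over 1, SAT1 was higher and MTAP was lower, beside 10.6% and 13.5% of all genes. SMS passed this fold as well without Control replicate 2 (-1.05), Control replicate 3 (-1.04) or DZNep replicate 4 (-1.06), and MTAP missed it without DZNep replicate 4 (-0.9995). The median log2 fold change was 0.02 over the 10 genes and -0.03 over all genes. For SAT1 the lowest DZNep library was above the highest Control library, as for 19.5% of all genes, and for SMS and MTAP the opposite held, as for 19.4%. The replicate numbers were taken to pair the libraries, although Control replicate 1 correlated more with DZNep replicate 4 (0.529) than with DZNep replicate 1 (0.136). The test was therefore also run with the number as a block. In that fit 2 genes were higher (SAT1 and ADI1) and 3 lower (SMS, MTAP and SRM), beside 28.8% and 30.2% of all genes.

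ODC1 (ENSG00000115758, chr2:10439968-10448327, minus strand, GRCh38) encodes ornithine decarboxylase, the first committed enzyme of the pathway. Its normalized counts were 7195, 11765, 9155 and 5645 in Control replicates 1 to 4 and 9506, 8826, 7851 and 8391 in the DZNep replicates. The DZNep libraries all fell inside the range of the Control libraries, which was the wider of the 2. The log2 fold change was 0.01 ± 0.22 (SE, adjusted p = 0.98), with a 95% confidence interval from -0.47 to 0.49.

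AMD1 (ENSG00000123505, chr6:110874770-110898879, plus strand) encodes S-adenosylmethionine decarboxylase, the point at which polyamine synthesis draws on the methyl donor. Control libraries gave 6046, 14500, 11644 and 6109 normalized counts and DZNep libraries 8600, 13337, 8758 and 7096. Replicates 2 and 3 of Control stood above replicates 1 and 4, and replicate 2 was the highest in both groups. The groups overlapped throughout, and the log2 fold change was -0.05 ± 0.31 (adjusted p = 0.921), with a 95% confidence interval from -0.74 to 0.65.

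For both entry enzymes, the direction depended on the replicate. Same-numbered libraries gave log2 ratios (DZNep over Control) of 0.40, -0.41, -0.22 and 0.57 for ODC1 and 0.51, -0.12, -0.41 and 0.22 for AMD1 in replicates 1 to 4. Both were thus positive in replicates 1 and 4, where mitochondrial transcripts took the larger share, and negative in replicates 2 and 3. With replicates 1 and 4 alone, the fitted log2 fold change of ODC1 was 0.50 (adjusted p = 0.0678), and with replicates 2 and 3 alone it was -0.36 (adjusted p = 0.0719). AMD1 gave 0.39 (adjusted p = 0.135) and -0.28 (adjusted p = 0.247) in the same fits. The difference between the pairs of replicates and the part of the mitochondrial share in it were not tested.

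SRM (ENSG00000116649, chr1:11054584-11060020, minus strand), spermidine synthase, had 10717, 7149, 6991 and 13004 normalized counts in Control and 7277, 4906, 4787 and 10086 in DZNep libraries. Replicates 1 and 4 were the highest of both groups, and the DZNep value was lower in each of the 4 replicate numbers although the groups overlapped. The log2 fold change was -0.51 ± 0.29 (adjusted p = 0.183), with a 95% confidence interval from -1.16 to 0.13. With the replicate block, it was -0.53 with an adjusted p of 0.000752, so the call depended on whether libraries were compared within their number. The log2 ratios by number were -0.56, -0.54, -0.55 and -0.37. Without DZNep replicate 4, the highest of its group, SRM passed without the block too (-0.76, adjusted p = 0.0477).

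SMS (ENSG00000102172, chrX:21940709-21994837, plus strand), spermine synthase, had 7674, 5683, 5899 and 7823 normalized counts in Control and 3678, 2825, 3349 and 4203 in DZNep libraries. The highest DZNep library lay below the lowest Control library. DZNep over Control, the log2 fold change was -0.97 ± 0.18 (adjusted p = 0.0017), with a 95% confidence interval from -1.37 to -0.58. By replicate number, the log2 ratios of -1.06, -1.01, -0.82 and -0.90 lay close together. Of the 4 synthetic genes, SMS was the one that passed the test both with and without the block.

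The antizyme system acts on ODC1 after translation. OAZ1 encodes the antizyme that binds ODC1 and sends it to the proteasome, and AZIN1 encodes an inactive relative of ODC1 that takes the antizyme up. OAZ1 (ENSG00000104904, chr19:2269509-2273490, plus strand) gave 21738, 21288, 20283 and 25578 normalized counts in Control and 25487, 21101, 22134 and 32311 in DZNep libraries. Replicate 4 was the highest in both groups, and the ranges overlapped (log2 fold change 0.16 ± 0.18, adjusted p = 0.519, 95% confidence interval -0.24 to 0.56). AZIN1 (ENSG00000155096) gave 3754, 5158, 5055 and 2750 normalized counts in Control and 4466, 4749, 4673 and 3547 in DZNep libraries. Its log2 fold change was 0.03 ± 0.21 (adjusted p = 0.913, 95% confidence interval -0.43 to 0.50). As with ODC1, its log2 ratio was positive in replicates 1 and 4 (0.25 and 0.37) and negative in replicates 2 and 3 (-0.12 and -0.11). A protein-coding gene annotated on the same strand, ENSG00000289653, overlaps AZIN1 and was not among the counted genes. Antizyme is made by polyamine-induced frameshifting and ODC1 is turned over as a protein, neither of which transcript counts measure.

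SAT1 (ENSG00000130066, chrX:23783173-23786210, plus strand) encodes spermidine/spermine acetyltransferase, the inducible step of polyamine breakdown. Its normalized counts were 1295, 640, 1154 and 1127 in Control replicates 1 to 4 and 7232, 5597, 7764 and 10174 in the DZNep replicates. The lowest DZNep library exceeded the highest Control library, and Control replicate 2 was the lowest of all. This gave a log2 fold change of 2.84 ± 0.26 (adjusted p = 3.84e-05), with a 95% confidence interval from 2.26 to 3.42. The log2 ratios by number were 2.48, 3.13, 2.75 and 3.17. Among the 13624 genes whose log2 CPM averaged 1 or more, 63 (0.462%) had a higher log2 fold change. A protein-coding gene annotated on the same strand, ENSG00000288706, overlaps SAT1 and was not among the counted genes. Reads of any shared exons thus cannot be assigned to 1 of them with certainty.

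The enzyme that oxidizes spermine directly, SMOX (ENSG00000088826, chr20:4120980-4187747, plus strand), gave 632, 311, 423 and 237 normalized counts in Control and 455, 395, 517 and 456 in DZNep libraries. Control replicates 1 and 4 were the extremes, and all DZNep libraries fell between them. Its log2 fold change was 0.16 ± 0.27 (adjusted p = 0.662, 95% confidence interval -0.44 to 0.76). Its ratio to SAT1 within a library is given with the other ratios.

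MTAP (ENSG00000099810, chr9:21802636-21937651, plus strand) encodes methylthioadenosine phosphorylase, which removes the by-product of spermidine and spermine synthesis and opens the salvage pathway. Normalized counts were 2875, 3332, 3213 and 2511 in Control and 1435, 1573, 1530 and 1205 in DZNep libraries. Replicate 4 was the lowest and replicate 2 the highest in both groups, and the groups were well apart. The log2 fold change was -1.08 ± 0.15 (adjusted p = 0.000354), with a 95% confidence interval from -1.42 to -0.75. The log2 ratios by number, -1.0, -1.08, -1.07 and -1.06, spread less than those of any other member.

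ADI1 (ENSG00000182551, chr2:3497366-3519531, minus strand) encodes acireductone dioxygenase, which acts at the far end of the pathway and yields the keto acid precursor of methionine. Its normalized counts were 2436, 3352, 2497 and 2862 in Control and 3643, 3600, 3063 and 3833 in DZNep libraries. Control replicate 2 lay above DZNep replicate 3, so the groups overlapped, but each DZNep library exceeded the Control library of its number. The log2 fold change was 0.32 ± 0.15 (adjusted p = 0.12), with a 95% confidence interval from -0.02 to 0.65. With the replicate block it was 0.32 with an adjusted p of 0.0275, and without Control replicate 2 it was 0.41 with an adjusted p of 0.0482.

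Most other enzymes of methionine salvage were lower with DZNep. Of 8 genes listed, all were tested, 6 passed the test as lower and 0 as higher, beside 21.8% and 19.1% of all genes tested. The median log2 fold change was -0.60 (-0.03 over all genes). Like the lists that follow, this list was written with earlier results of these data known, so its counts are descriptions. No gene of the list was higher at an unadjusted p under 0.05 with edgeR or at an adjusted p under 0.05 with DESeq2. In pathway order after MTAP, MRI1, the isomerase, went from 2043 ± 233 to 1383 ± 159 normalized counts (log2 fold change -0.59 ± 0.14, adjusted p = 0.00782). APIP, the dehydratase, went from 1793 ± 84.6 to 967 ± 151 (-0.92 ± 0.14, adjusted p = 0.00072). ENOPH1, the enolase-phosphatase whose product ADI1 oxidizes, went from 2931 ± 500 to 1425 ± 219 (-1.07 ± 0.17, adjusted p = 0.000769). In each of these 3 genes the highest DZNep library lay below the lowest Control library, as in 6 of the 8 listed genes and 19.4% of all genes tested. The transaminases GOT1, KYAT1 and KYAT3, which can aminate the last keto acid among other substrates, had log2 fold changes of -0.61 (adjusted p = 0.00618), -0.70 (adjusted p = 0.00313) and -0.45 (adjusted p = 0.0396). The last members, IL4I1 and TAT, did not pass (0.05 ± 0.36 and 0.56 ± 0.72), and TAT had at most 21.4 normalized counts in a library. With replicates 1 and 4 alone, 2 of the 8 genes passed as lower. KYAT3, the nearest to the threshold, did not pass in 7 of the 8 fits that left out a library (all but that without Control replicate 4), so that 5 genes were then lower.

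**Figure D2:**
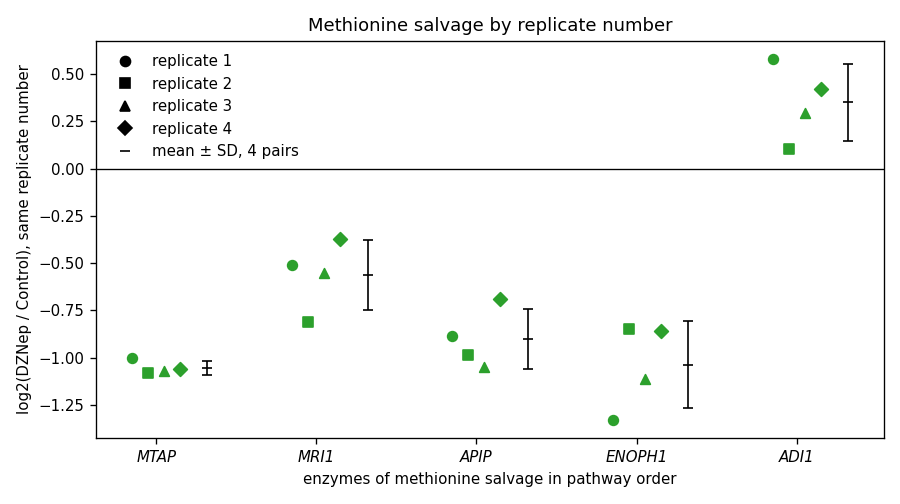
Log2 ratio of normalized counts, DZNep over Control, of libraries with the same replicate number for the 5 enzymes from MTAP to ADI1 in pathway order, with a symbol for each replicate number and bars for the mean ± SD over the 4 numbers. All ratios of MTAP, MRI1, APIP and ENOPH1 lie below 0 (-0.37 is the nearest to 0, in MRI1), and the 4 ratios of ADI1 lie above 0, from 0.10 to 0.58.

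Further genes of polyamine turnover were taken from a list of 10 antizyme, catabolic and precursor genes, of which 8 had enough counts to be tested and 3 were lower, beside 21.8% of all genes tested. PAOX, the peroxisomal oxidase of the acetylated polyamines that SAT1 makes, fell from 170 ± 7.14 to 88.8 ± 11.7 normalized counts (log2 fold change -0.96 ± 0.18, adjusted p = 0.00187). Its libraries did not overlap, at 161 to 179 in Control and 72.5 to 99.0 in DZNep. Of the 8 tested genes, 3 had all DZNep libraries below all Control libraries, beside 19.4% of all genes tested. The opposite held for 2 (OAT and OAZ3), beside 19.5% of all genes tested. AGMAT, named for agmatine hydrolysis, fell from 84.2 ± 4.59 to 49.8 ± 5.72 (-0.79 ± 0.20, adjusted p = 0.0107). AZIN2, a second antizyme inhibitor, fell from 189 ± 17.2 to 133 ± 20.8 (-0.53 ± 0.18, adjusted p = 0.0387), a call that was lost in 6 of the 8 fits that left out a library (all but those without Control replicate 1 or DZNep replicate 1). No gene of the list passed as higher in the main edgeR fit (TMM, all 8 libraries, no block), where OAT was higher at an unadjusted p under 0.05. OAT did pass with DESeq2, limma at either pseudocount, and edgeR with the replicate block or with library sizes alone. It also passed in edgeR with at least 10 counts in every library and without Control replicate 2. OAT, the mitochondrial ornithine aminotransferase, went from 6040 ± 613 to 7981 ± 930 (0.37 ± 0.15, adjusted p = 0.0636, or 0.0094 with the replicate block). SAT2, a relative of SAT1, gave -0.39 ± 0.26 (adjusted p = 0.25, or 0.012 with the block). The antizymes OAZ2 (-0.18) and OAZ3 (0.42) and the arginase ARG2 (0.03) did not pass, and SATL1 and ARG1 were below the filter on low counts.

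**Figure D3:**
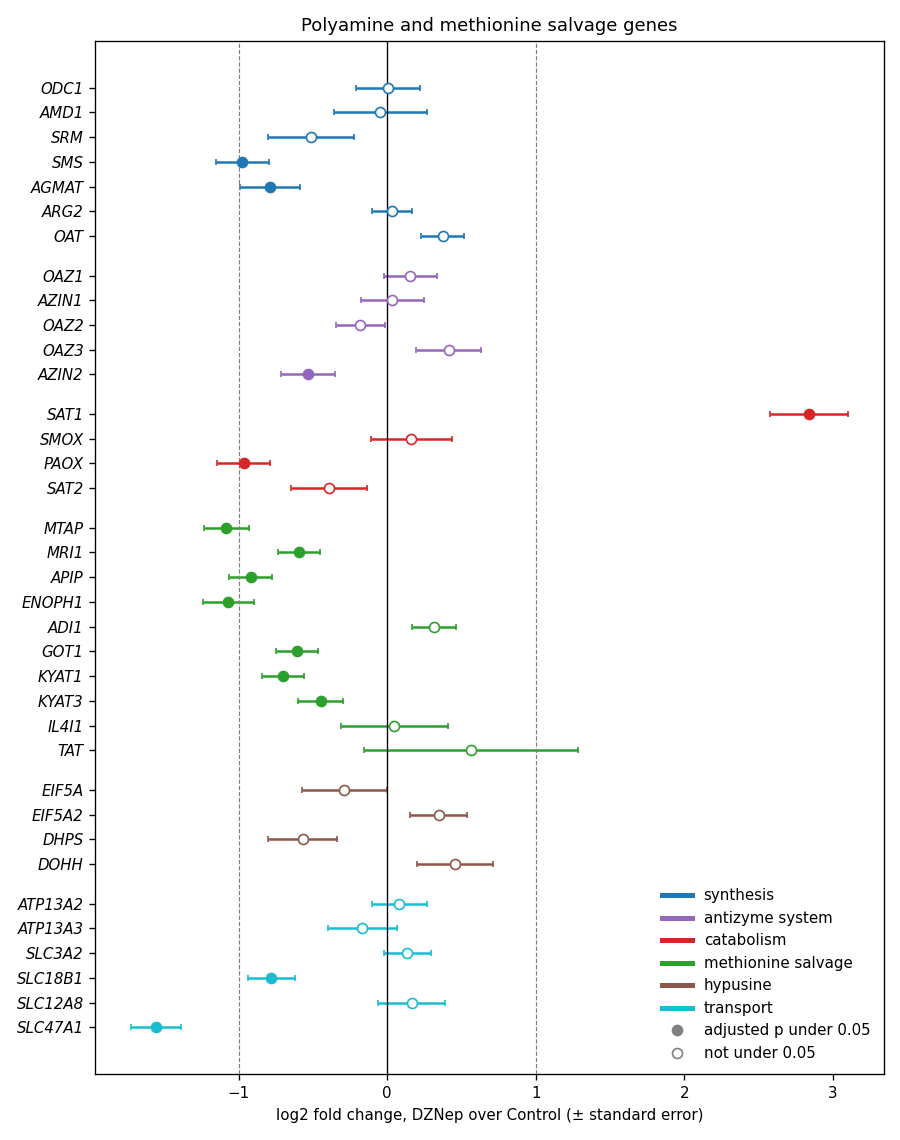
Log2 fold change of DZNep over Control with its standard error (horizontal axis) for the 10 genes and the 26 tested genes of the 4 related lists, grouped by role. Filled symbols mark an adjusted p under 0.05 and dashed lines a log2 fold change of -1 and 1. SAT1 stands alone on the right at 2.84, and the filled symbols on the left run from -0.45 (KYAT3) to -1.56 (SLC47A1).

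Ratios between members were compared within each library, since such a ratio does not depend on how libraries are scaled to each other. Of the 5 pairs, SMOX/SAT1 and MTAP/ADI1 did not overlap between the groups, and none passed after adjustment. The log2 ratio of SMOX to SAT1 counts was -1.03, -1.04, -1.45 and -2.25 in Control and -3.99, -3.83, -3.91 and -4.48 in DZNep libraries. The ratio was 6.10-fold lower with DZNep (exact two-sided permutation test, p = 0.0286, adjusted p = 0.0714 over 5 pairs). The log2 ratio of MTAP to ADI1 was 0.24, -0.01, 0.36 and -0.19 in Control and -1.34, -1.19, -1.0 and -1.67 in DZNep libraries, which is 2.65-fold lower (exact p = 0.0286, adjusted p = 0.0714). An exact p of 0.0286 is the smallest that 4 against 4 libraries allow. With 2 of the 5 pairs at that value, their adjusted p could not go below 0.0714. No conclusion can therefore be drawn from these 2 not passing.

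The ratio of spermine synthase to spermidine synthase, SMS/SRM, moved from a log2 value of -0.45 ± 0.21 to -0.89 ± 0.31 (SD, n = 4, exact permutation p = 0.0571, adjusted p = 0.0952) and was lower in all 4 replicate numbers. ODC1 set against its antizyme gave -1.44 ± 0.58 in Control and -1.53 ± 0.29 in DZNep libraries (exact permutation p = 0.83, adjusted p = 0.971). ODC1 set against AZIN1 gave 1.01 ± 0.14 and 0.99 ± 0.22 (exact permutation p = 0.971, adjusted p = 0.971). Both transcripts ranked replicate 2 first and replicate 4 last among the Control libraries, and their ratio kept to a range of 0.86 to 1.19 there. Paired by replicate number, with signs flipped exactly, no ratio could go below p = 0.125, the value that SMS/SRM, SMOX/SAT1 and MTAP/ADI1 reached.

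**Figure D4:**
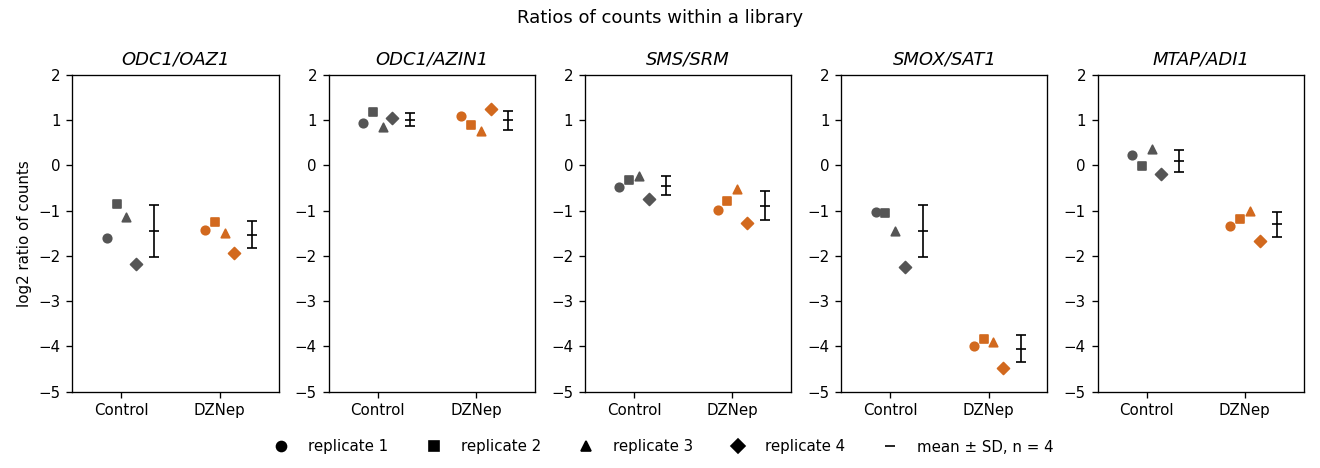
Log2 ratio of the counts of 2 genes in the same library (vertical axis, shared by the 5 panels) for Control (grey) and DZNep (orange) libraries, with a symbol for each replicate number and bars for the mean ± SD. SMOX/SAT1 shifts from a mean of -1.44 to -4.05 and MTAP/ADI1 from 0.10 to -1.30 without overlap, while ODC1/OAZ1 and ODC1/AZIN1 overlap.

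Levels of different genes were compared as RPKM, that is counts scaled to the length of all annotated exons and to the total of the library. In Control cells the order was OAZ1 (167 ± 2.43, SD, n = 4), SRM (127 ± 28.0), SMS (81.9 ± 8.87), ODC1 (67.5 ± 25.2), AMD1 (25 ± 12.4), AZIN1 (18.1 ± 6.24), ADI1 (13.5 ± 2.39), SAT1 (11 ± 3.02), MTAP (5.39 ± 1.10) and SMOX (3.58 ± 1.6). Ranges over the libraries did not overlap between OAZ1 and SRM, SRM and SMS, ODC1 and AMD1, or SAT1 and MTAP, whereas the other neighbours in this order overlapped. In DZNep-treated cells SAT1 stood at 82.9 ± 16.6 RPKM, moving from the eighth place to the third, and its range of 62.4 to 101 overlapped those of SRM (71.6 to 131) and ODC1 (62.4 to 76.7). SMS, at 44.2 ± 5.19, came after ODC1 (70.4 ± 6.27), and MTAP, at 2.68 ± 0.46, was the lowest of the 10 (SMOX 4.18 ± 0.63). The exons of MTAP (14527 bases) and AMD1 (10193 bases) include long isoforms that the cells may not use, and their RPKM would then be too low. The counted pseudogenes of members held at most 11 counts in a library, and the overlapping genes that were counted at most 81.

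The genes whose log2 CPM profiles over the 8 libraries were closest to those of SAT1 and MTAP, by the root mean square difference after centring, were sought among the 13624 genes whose log2 CPM averaged 1 or more. For SAT1 they were ENSG00000260167 (0.266), STRA6 (0.290) and SUSD2 (0.298), with log2 fold changes of 3.08, 2.47 and 2.82. STRA6, a receptor for retinol-binding protein, went from 38.2 ± 9.54 to 215 ± 49.7 normalized counts and SUSD2 from 37.7 ± 11.2 to 271 ± 64.7, both far below SAT1 in counts. For MTAP the closest profile was that of DYM (0.0605), which went from 2127 ± 302 to 983 ± 66.3 normalized counts (log2 fold change -1.14), and the third was IPO13 (0.0791), which went from 1634 ± 265 to 816 ± 119 (log2 fold change -1.03). These genes were selected for likeness over all 8 libraries, so their fold changes are descriptions and were not tested as a group.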

How the data were processed

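The authors sequenced RNA from 4 Control and 4 DZNep replicates and, per the labels and the submitters' processing notes, used Trimmomatic 0.36, STAR 2.5.2b on GRCh38 and featureCounts (Subread 1.5.2). The authors deposited counts of unique exonic reads per gene, without normalization, and a second table, a signal in normalized counts, which was checked to be each count divided by 1 size factor per library. Annotation release and strandedness are not given in the sources used here, so overlapping and antisense genes are uncertain. Symbols, coordinates and exon lengths came from GENCODE's GRCh38 annotation, and 56410 of 57500 identifiers had a symbol.

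Counts were tested in R 4.3.3 with edgeR 4.0.16 (filterByExpr, TMM, quasi-likelihood test, Benjamini-Hochberg adjustment over 19171 genes) and without a replicate term. DESeq2 1.42.0 and limma 3.58.1 on log2(normalized count + 1 or 0.1), other size factors, other filters, the block and leaving out each library were the alternatives, and fits of replicates 2 and 3 alone and of 1 and 4 alone were added after seeing the data. The replicate numbers, which both groups share in the labels, were taken to pair the libraries because deviations from the group means correlated by 0.136, 0.492, 0.429 and 0.673 between same-numbered libraries. Control replicate 1 correlated more with DZNep replicate 4 (0.529) than with its own number, and Control replicate 2 with DZNep replicate 3 (0.398) and Control replicate 3 with DZNep replicate 2 (0.343) also correlated, so replicates 1 and 4 and replicates 2 and 3 resembled each other across numbers. Libraries of a group differed by more than sampling noise (chi-square of at least 26.9 per degree of freedom).

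The members and lists were chosen with earlier results of these data known. Named were all members, up to 6 genes of each list with an adjusted p under 0.05, and, for members also past an absolute log2 fold change of 1, up to 3 genes with the closest profile. Genes of a list that did not pass were named after their values were seen, outside this rule. The second closest profile to MTAP is not reported here.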

Additional observations from a re-analysis of the deposited data

How the results depend on the processing

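SAT1, SMS and MTAP kept their direction and their call under all 18 alternatives, with log2 fold changes of 2.66 to 2.97, -1.06 to -0.87 and -1.16 to -1.0. With the replicate block, in which libraries were compared within their number, 2 members were higher instead of 1, SRM passed as lower (-0.53) and ADI1 as higher (0.32), AMD1 was at 0.02, 1 gene of the antizyme, catabolism and precursor list was higher, and 2 hypusine genes were higher and 2 lower. With the block, 28.8% of all genes tested were higher and 30.2% lower. The block ended no call of a member. With replicates 2 and 3 alone, ODC1 was at -0.36, AZIN1 at -0.15 and SRM at -0.58 (passing), and 1 hypusine gene was higher. With replicates 1 and 4 alone, AMD1 was at 0.39 and ADI1 at 0.51 (passing, so that 2 members were higher), and 2 salvage genes, 1 gene of the antizyme, catabolism and precursor list and 1 hypusine gene were lower. AMD1 was at 0.011 with library sizes alone and at 0.05 with limma at either pseudocount. A gene of the antizyme, catabolism and precursor list was higher (1 instead of 0) with library sizes alone, with at least 10 counts in every library, with DESeq2 and with limma at either pseudocount.

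With each library left out in turn, log2 fold changes ran from -0.15 to 0.21 for ODC1, -0.25 to 0.22 for AMD1, -0.76 to -0.33 for SRM, -0.0275 to 0.45 for SMOX, -0.13 to 0.15 for AZIN1 and 0.25 to 0.41 for ADI1. The ratios ODC1/OAZ1 and ODC1/AZIN1 differed by -0.33 to 0.11 and by -0.0946 to 0.0699 between the groups. SRM passed without DZNep replicate 4 (-0.76, adjusted p = 0.0477) and ADI1 without Control replicate 2 (0.41, adjusted p = 0.0482), so that 1 to 2 members were higher. Members lower past both thresholds numbered 1 to 2, 2 of them without Control replicate 2 or 3, when SMS passed -1, and without DZNep replicate 4 SMS passed it (-1.06) while MTAP (-0.9995) did not. Of the 6 salvage genes called lower, KYAT3 was lost in 12 of the 18 alternatives (7 that left out a library, library sizes alone, no filter on low counts, both limma fits and replicates 1 and 4 alone), and of the antizyme, catabolism and precursor genes AZIN2 was lost in 10 (6 that left out a library). Between 0 and 1 genes of the antizyme, catabolism and precursor list were higher (1 without Control replicate 2), and between 0 and 1 hypusine genes were lower (1 without Control replicate 2 or DZNep replicate 4). The cause was not tested in any of these cases. With 4 libraries a group, the 95% confidence intervals of members that did not pass reached at least 0.49 on the log2 scale on 1 side.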

Other observations

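Spermidine also supplies the hypusine residue of the translation factor EIF5A, which DHPS and DOHH build in succession. Of the 4 hypusine genes tested (EIF5A, EIF5A2, DHPS and DOHH), 0 passed in either direction in the main edgeR fit. Of all genes tested, 19.1% were higher and 21.8% lower. With DESeq2 0 passed too, and in the main edgeR fit 1 (DHPS) was lower at an unadjusted p under 0.05. DHPS went from 3402 ± 992 to 2340 ± 478 normalized counts (mean ± SD, n = 4, log2 fold change -0.57 ± 0.23 SE, adjusted p = 0.0757), and DOHH from 945 ± 306 to 1322 ± 344 (0.46 ± 0.26, adjusted p = 0.183). EIF5A, at 51361 ± 17066 normalized counts in Control, had a log2 fold change of -0.29 ± 0.28 (adjusted p = 0.45). With the replicate block, DHPS (adjusted p = 0.00107) and EIF5A (adjusted p = 0.0442) were lower and DOHH (adjusted p = 0.0169) and EIF5A2 (adjusted p = 0.043) higher. Of all genes tested, 30.2% were lower and 28.8% higher in the same fit. The log2 fold change of DHPS was negative and that of DOHH positive, both with and without the block.

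Of 11 polyamine transport genes, 6 were tested, 2 were lower and 0 were higher, beside 21.8% and 19.1% of all genes tested. The counts were the same at an unadjusted p under 0.05 and with DESeq2. SLC47A1, a plasma membrane exporter of organic cations, had 779, 905, 920 and 645 normalized counts in Control and 268, 247, 323 and 287 in DZNep libraries. It was the lowest of the pathway genes by log2 fold change (-1.56 ± 0.17, adjusted p = 8.23e-05), and the groups did not overlap. Of the 6 tested genes, 2 had all DZNep libraries below all Control libraries and 0 above, beside 19.4% and 19.5% of all genes tested. SLC18B1, a vesicular polyamine transporter, went from 2554 ± 495 to 1517 ± 83.5 (-0.78 ± 0.16, adjusted p = 0.0034). ATP13A2, ATP13A3, SLC3A2 and SLC12A8 had log2 fold changes between -0.17 and 0.17 and did not pass.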
